A study of Mus musculus with 2 samples.

Results

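NF-kB is a family of dimeric transcription factors that is held inactive in the cytoplasm by IkB inhibitors and enters the nucleus after receptors of TNF, IL-1 or Toll-like ligands have been engaged. Its 5 subunits, encoded by Nfkb1, Nfkb2, Rel, Rela and Relb, bind kB sites in the promoters and enhancers of inflammatory and survival genes. Bcl3 is an atypical IkB protein that acts in the nucleus, where it binds the p50 and p52 subunits made from Nfkb1 and Nfkb2 and can bring activation or repression to their sites. In injured brain the pathway is known for its part in the reactive states of astrocytes and microglia and in the activation of vessels.

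Accessibility at 9 genes of this family (Bcl3, Nfkb1, Nfkb2, Rel, Rela, Relb, Nfkbia, Nfkbiz and Tnfaip3), of 21911 protein-coding genes, was read from a single-nucleus ATAC-seq experiment, in which the transposase Tn5 inserts adapters into accessible DNA and a barcode ties every unique fragment to 1 nucleus. The genes were listed by name and were chosen by their fragment levels per library and class, with Bcl3 as the gene that differed, so their differences between libraries are given as a description. A gene's level was the number of fragments that overlapped its body and the 2 kb upstream of it, per 1000000 fragments of the same nuclei (CPM). Fragments over a gene measure open chromatin and not its RNA or protein.

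The nuclei came from male wild-type C57BL/6J mice of 8 to 12 weeks. In the stroke group the middle cerebral artery had been occluded with a filament for 1 h. The ipsilateral hemispheres of 4 brains, taken at 48 h, were pooled before nuclei were extracted. Sham mice had the filament put in, but the artery was not kept closed, and 4 brains taken at the same time were pooled in the same way. Olfactory bulbs and cerebellum were left out in both groups. Each condition was therefore 1 library, no difference between sham and stroke had a replicate, and no test was run between them. Intervals below are 95% intervals, exact unless stated, that cover counting error only. Library, pool, sampled tissue and condition cannot be told apart.

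The sham library held 76959104 fragments and 6979 called barcodes, and the stroke library 96465679 fragments and 8740 called barcodes. Barcodes with over 20% of their fragments in peaks were kept, which left 6817 sham and 5054 stroke nuclei with a median depth of 10356 and 9898 fragments. The filter removed 162 called barcodes from sham and 3686 from stroke. Of the kept barcodes, 42 had the same sequence in both libraries. Nuclei were placed in 8 classes from markers that did not include the members, which named 68.5% of sham and 67.5% of stroke nuclei. The markers held out of the gate were highest in their own class in each of the 8 classes, at 3.48 times the level of all kept nuclei for astrocytes, 5.37 times for oligodendrocytes and 2.97 times for oligodendrocyte precursors (OPC). They were only 1.35 times for glutamatergic and 1.38 times for GABAergic neurons, so the neuronal names are the least certain. Of the 10 genes that led by fold, 0 were listed markers of any class in the astrocyte-like and in the glutamatergic neuron-like class, and several of the latter's were olfactory receptor genes. Stroke nuclei had a smaller share of fragments in peaks than sham nuclei (34.3% against 40.4%), also within the astrocyte-like class (44.3% against 48.3%), and its part in the results below was not tested.

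The windows of 300 bases that were found accessible at Bcl3 are shown first. Along each gene, from 10 kb upstream of its start to its end, accessible elements were taken where the mean of both libraries in non-neuronal nuclei reached 5 insertions per 1000000 fragments, a rate also written as CPM below. This gave 23 elements, 4 of them at Bcl3. Bcl3 lies on the minus strand of chromosome 7, at chr7:19808462-19822770 in GRCm38 (mm10), and its elements were centred at -8146, -1542, +5203 and +6302 bases from its start. The first (chr7:19830766-19831065) and the second (chr7:19824162-19824461) lie upstream of the gene, and the first is outside the counted window. The third (chr7:19817417-19817716) and the fourth (chr7:19816318-19816617) lie in introns of Bcl3, where they overlap the antisense gene Gm16174, and the fourth holds its annotated start. The promoter sequence of RefSeq, from 250 bases before to 50 after the start (chr7:19822706-19823005), is shown with them. Letters are in the direction of the gene, 5′ to 3′, from GRCm38.p6, and capitals mark matches to a kB, an AP-1 or a STAT motif on either strand.
Bcl3 -8146: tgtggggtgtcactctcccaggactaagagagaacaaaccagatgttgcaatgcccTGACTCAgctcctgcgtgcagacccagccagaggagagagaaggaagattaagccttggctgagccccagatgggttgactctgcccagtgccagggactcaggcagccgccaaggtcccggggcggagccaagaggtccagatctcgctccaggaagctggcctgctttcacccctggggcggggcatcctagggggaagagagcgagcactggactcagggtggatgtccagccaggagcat
Bcl3 -1542: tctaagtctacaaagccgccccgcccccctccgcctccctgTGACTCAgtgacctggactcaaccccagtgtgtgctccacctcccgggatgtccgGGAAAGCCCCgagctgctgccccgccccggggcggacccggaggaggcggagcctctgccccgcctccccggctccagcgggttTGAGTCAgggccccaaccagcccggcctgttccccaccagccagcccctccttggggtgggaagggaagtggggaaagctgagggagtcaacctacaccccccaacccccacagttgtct
Bcl3 promoter: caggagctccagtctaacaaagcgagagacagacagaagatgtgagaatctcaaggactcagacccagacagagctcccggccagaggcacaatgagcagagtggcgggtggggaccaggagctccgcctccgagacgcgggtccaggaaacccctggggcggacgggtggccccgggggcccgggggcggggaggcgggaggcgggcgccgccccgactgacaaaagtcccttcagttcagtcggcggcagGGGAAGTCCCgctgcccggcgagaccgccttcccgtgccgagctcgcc
Bcl3 +5203: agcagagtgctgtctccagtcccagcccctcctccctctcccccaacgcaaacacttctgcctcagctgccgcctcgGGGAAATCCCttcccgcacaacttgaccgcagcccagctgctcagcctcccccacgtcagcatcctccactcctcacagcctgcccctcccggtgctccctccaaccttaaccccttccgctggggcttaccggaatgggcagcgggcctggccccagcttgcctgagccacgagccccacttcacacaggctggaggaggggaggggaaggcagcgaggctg
Bcl3 +6302: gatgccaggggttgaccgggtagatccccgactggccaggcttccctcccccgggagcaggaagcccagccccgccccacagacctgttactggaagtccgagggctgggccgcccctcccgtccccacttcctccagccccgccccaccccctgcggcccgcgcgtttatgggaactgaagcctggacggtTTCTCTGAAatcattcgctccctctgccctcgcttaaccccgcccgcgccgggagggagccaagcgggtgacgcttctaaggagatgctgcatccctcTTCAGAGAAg

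Counted from 1 at the left of each line, the element at -8146 held the AP-1 match TGACTCA at positions 57 to 63. The element at -1542 held 2 AP-1 matches, TGACTCA at 42 to 48 and TGAGTCA at 181 to 187, and the kB match GGAAAGCCCC at 97 to 106. The promoter held the kB match GGGAAGTCCC at 253 to 262, and the element at +5203 held GGGAAATCCC at 78 to 87. The element at +6302 held 2 STAT matches and neither a kB nor an AP-1 match. The motifs searched were the canonical kB consensus, TGANTCA for AP-1, TTCNNNGAA for STAT, TTGCNNAA for C/EBP and the CTCF consensus. Of 32851 RefSeq promoters of 300 bases, 4.51% held a kB match and 7.81% an AP-1 match, and of 150000 accessible windows of that length 4.10% and 10.9% did. The STAT motif was in 8.30% of promoters and 8.63% of accessible windows, the C/EBP motif in 10.8% and 11.5%, and the CTCF consensus in 0.557% and 1.84%. A match is a run of letters, and binding was not measured.

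In astrocyte-like nuclei these 4 Bcl3 elements had between 0.936 and 6.86 insertion CPM in sham and between 22.2 and 41.6 in stroke. The element at +6302 had 9 insertions in sham (2.81 CPM, in 4 of 325 nuclei) and 193 in stroke (41.6 CPM, in 98 of 471 nuclei). The element at -1542 went from 12 insertions (3.74 CPM, 6 nuclei) to 167 (36.0 CPM, 77 nuclei). The element at +5203 had 3 insertions in sham (0.936 CPM, 2 nuclei) and 103 in stroke (22.2 CPM, 52 nuclei), and that at -8146 had 22 (6.86 CPM, 11 nuclei) and 150 (32.3 CPM, 65 nuclei). The stroke over sham ratios were 14.8, 9.61, 23.7 and 4.71 in this order. The mean that selected the elements included the stroke library, so an element low in sham could pass through stroke alone. The ratios of the selected elements, here and in other classes, are therefore a description. The Bcl3 promoter itself, 1 kb to each side of the start, was a minor site, with 3 fragments in sham (0.936 CPM) and 46 in stroke (9.91 CPM). Both ends of a fragment can fall in 1 element, so insertions are not independent and the numbers of nuclei are the safer guide to precision.

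**Figure D1:**
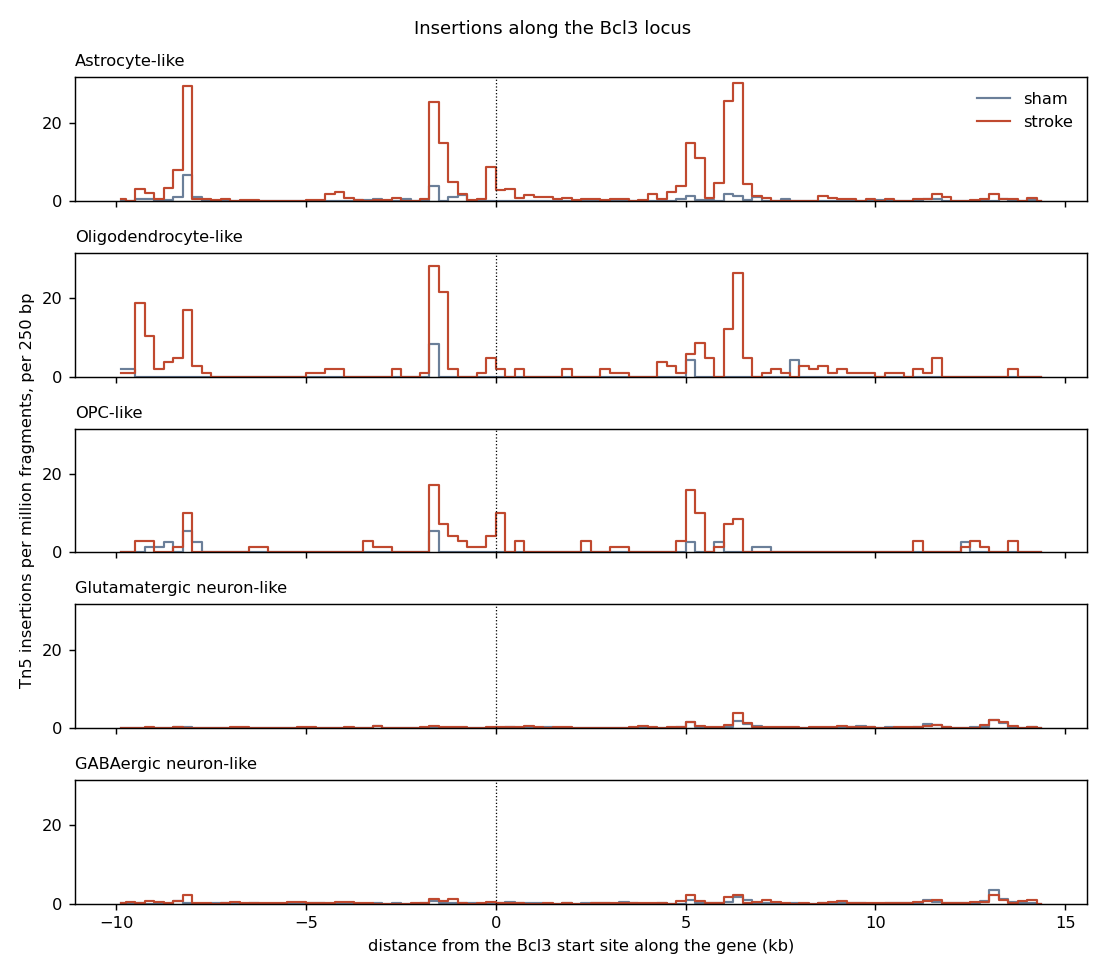
Tn5 insertion CPM in bins of 250 bp (y axis) against the distance from the Bcl3 start site in kb, positive into the gene, for sham (grey-blue) and stroke (red) in 5 classes. In the 3 glial classes the stroke line rises at discrete places upstream and inside the gene, while both neuronal classes stay near 0.

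In oligodendrocyte-like and OPC-like nuclei these elements also had higher levels in stroke, but few nuclei carried them, from 0 to 2 sham and 3 to 21 stroke nuclei per element, so their intervals are too narrow. In oligodendrocyte-like nuclei the element at +6302 had 0 insertions in sham and 33 in stroke (31.2 CPM), and that at -1542 had 4 and 48 (8.31 and 45.4 CPM). The element at -8146 had 0 and 22 insertions there, and that at +5203 went from 4.15 to 10.4 CPM, a ratio of 2.50 (0.546 to 23.2). In OPC-like nuclei +6302 had 0 CPM in sham and 11.5 in stroke, -1542 had 5.47 and 21.6 (ratio 3.94, 1.2 to 16.3), and +5203 had 2.74 and 23.0 (ratio 8.40, 1.98 to 75.3). These OPC-like values came from 4, 6 and 7 stroke nuclei against 0, 2 and 1 in sham. The element at -8146 had 5.47 and 10.1 CPM in OPC-like nuclei, from 2 sham and 3 stroke nuclei, a ratio of 1.84 (0.467 to 8.56). Stroke myeloid-like nuclei had 13.2, 12.9, 12.3 and 24.7 CPM at these places. In glutamatergic neuron-like nuclei no Bcl3 element exceeded 3.92 CPM and in GABAergic neuron-like nuclei none exceeded 2.85 CPM in either library, although the insertion intervals of 3 of these 8 ratios lay above 1. They were +6302 in glutamatergic neuron-like nuclei (1.49 and 3.92 CPM, ratio 2.63, 1.76 to 3.95) and, in GABAergic neuron-like nuclei, -8146 (0.426 and 2.66 CPM, ratio 6.23, 2.75 to 15.9) and +5203 (1.01 and 2.56 CPM, ratio 2.53, 1.35 to 4.83), from 29 and 32, 7 and 14, and 10 and 14 nuclei. Elements had been taken from non-neuronal nuclei, so places open in neurons alone were not among them. Along the whole Bcl3 region, the highest bin of 250 bp in glutamatergic neuron-like nuclei had 3.80 CPM, and at +13000 to +13250, outside the elements, they had 2.00 CPM in sham and 2.08 in stroke.

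Over the whole counted window, Bcl3 was the one member with a large difference between the libraries. In all kept nuclei it had 780 fragments in sham (10.6 CPM, 9.88 to 11.4) and 1496 in stroke (28.3 CPM, 26.9 to 29.8), a ratio of 2.67 (2.45 to 2.91). This was the only member of 9 at or past 2-fold. With all called barcodes, among them the 3686 stroke and 162 sham barcodes that the filter removed, the log2 ratio fell from 1.42 to 0.92 and 0 members passed 2-fold. Of 20979 genes with at least 20 fragments over both libraries, 4.55% were at least 2-fold higher and 0.0191% at least 2-fold lower in stroke. When the stroke level of each class was weighted by the share of fragments that the class had in sham, the Bcl3 ratio was 1.94 and those of the other members lay between 0.880 and 1.16.

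In astrocyte-like nuclei, 27 Bcl3 fragments in sham (8.42 CPM, from 325 nuclei) stood against 430 in stroke (92.6 CPM, from 471 nuclei). The ratio was 11 (7.45 to 16.9), or 3.46 on the log2 scale. Of 17012 genes counted there, 3.52% were at least 2-fold higher and 1.30% at least 2-fold lower, and 4 had a higher ratio than Bcl3. Of the 12865 genes with at least 100 fragments, 0 had a higher ratio. Bcl3 had been chosen by these same levels, so its rank follows in part from that choice and is a description. Astrocyte-like nuclei held 8.80% of all fragments and 28.7% of the Bcl3 fragments of the kept stroke nuclei, against 4.36% and 3.46% in sham.

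The 2 other classes of the glial lineages gave similar values. Oligodendrocyte-like nuclei had 4 Bcl3 fragments in sham (8.31 CPM) and 88 in stroke (83.2 CPM), a ratio of 10.0 (3.77 to 37.5), at median depths of 1895 and 4110.0 fragments. OPC-like nuclei had 6 (8.21 CPM) and 40 (57.5 CPM), a ratio of 7.0 (2.95 to 20.2). Of the genes counted, 5.63% of 12646 in oligodendrocyte-like and 3.25% of 12729 in OPC-like nuclei were at least 2-fold higher, and 6.29% and 5.56% at least 2-fold lower. The sham counts of these classes are small, and their intervals overlap that of the astrocyte-like ratio.

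Neuronal levels were low in both libraries. Glutamatergic neuron-like nuclei had 252 fragments in sham (8.55 CPM) and 216 in stroke (13.2 CPM), a ratio of 1.55 (1.28 to 1.86). GABAergic neuron-like nuclei had 197 (10.5 CPM) and 149 (14.7 CPM), a ratio of 1.40 (1.12 to 1.74). The share of fragments in peaks was 43.4% in sham and 36.3% in stroke for the first and 36.7% and 31.7% for the second. Of the genes counted in these classes, 2.01% and 1.75% were at least 2-fold higher and 0.255% and 0.458% at least 2-fold lower. The intervals of the neuronal Bcl3 ratios lie below those of the 3 glial classes, but the difference between classes was not tested.

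**Figure D2:**
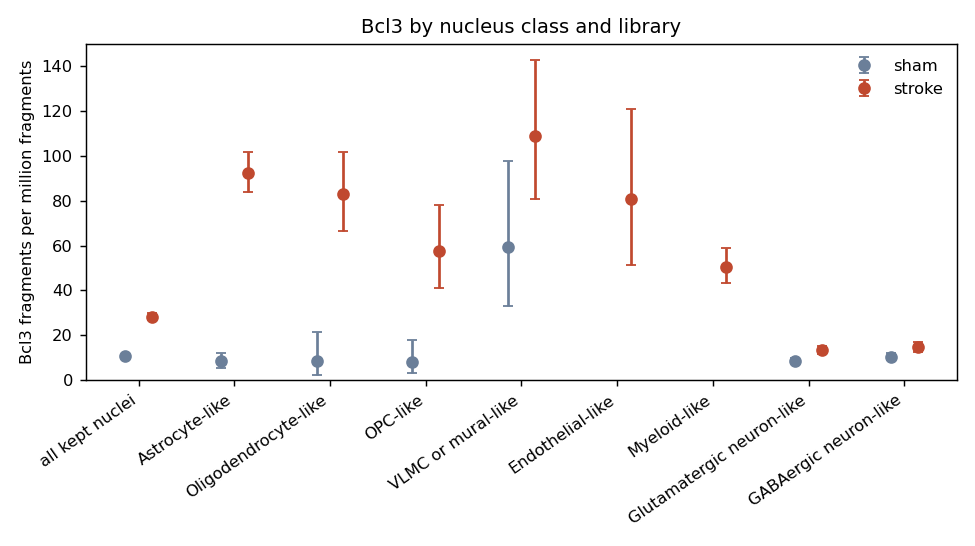
Bcl3 CPM (y axis, from 0) by nucleus class for sham (grey-blue) and stroke (red), with exact 95% Poisson intervals. Sham values of the endothelial-like and myeloid-like classes are left out because fewer than 50 nuclei were named, and the stroke points of all non-neuronal classes sit between 50.6 and 109, above both neuronal classes.

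In VLMC or mural-like nuclei the Bcl3 level was already high in sham. Vascular leptomeningeal or mural cell (VLMC)-like nuclei had 15 fragments in sham (59.3 CPM, 33.2 to 97.8) and 51 in stroke (109 CPM, 80.9 to 143), a ratio of 1.83 (1.01 to 3.51). The nuclei of this class were shallow, with median depths of 1879.5 and 2694 fragments. Held-out VLMC or mural markers were 2.89 times the level of all kept nuclei there, and held-out astrocyte markers 1.58 times. The part of admixed nuclei or fragments in its Bcl3 values was not tested. Few nuclei carried insertions at the Bcl3 elements. The element at +5203 had 0 insertions in sham and 22 in stroke (46.9 CPM, from 12 nuclei), and that at +6302 went from 31.6 CPM (4 nuclei) to 70.3 CPM (15 nuclei). The element at -1542 had 47.4 and 55.4 CPM (6 and 14 nuclei), while that at -8146 had 31.6 and 4.26 CPM, from only 4 sham nuclei and 1 stroke nucleus. In this class 7.69% of 8744 genes were at least 2-fold higher and 5.75% at least 2-fold lower. Endothelial-like nuclei had 8 fragments from 38 sham nuclei (73.2 CPM, 31.6 to 144) and 23 from 71 stroke nuclei (80.7 CPM, 51.2 to 121). Myeloid-like nuclei, which were 18 in sham and 223 in stroke, had 3 and 168 fragments (43.8 and 50.6 CPM). No ratio is given for the last 2 classes.

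In stroke the order of the Bcl3 levels ran from VLMC or mural-like through astrocyte-like, oligodendrocyte-like, endothelial-like, OPC-like and myeloid-like to GABAergic and glutamatergic neuron-like nuclei. The highest was 8.26 times the lowest, and the intervals of neighbours overlapped at each of the 7 steps except that from myeloid-like to GABAergic neuron-like nuclei. Some classes further apart did not overlap. The VLMC or mural-like (80.9 to 143) and astrocyte-like (84.1 to 102) intervals lay above the OPC-like (41.1 to 78.3) and myeloid-like (43.2 to 58.8) ones. The oligodendrocyte-like interval (66.7 to 102) lay above the myeloid-like one. In sham the VLMC or mural-like level was 7.22 times the lowest, and the intervals of the 5 other classes with at least 50 nuclei overlapped from each to the next.

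The share of astrocyte-like nuclei with a Bcl3 fragment was larger in stroke. After thinning each nucleus to 5000 fragments, 11 of 223 sham astrocyte-like nuclei (4.93%, 2.49% to 8.65%) and 137 of 370 stroke nuclei (37.0%, 32.1% to 42.2%) had at least 1. The unthinned shares were 7.69% and 50.7%, and 102 sham and 101 stroke nuclei were too shallow to be thinned. In glutamatergic neuron-like nuclei, with median depths of 12202 and 12954 fragments against 8276 and 8995 in the astrocyte-like class, the thinned shares were 3.22% and 4.86%. Sham astrocyte-like nuclei thus lay within counting error of neurons. At least 2 fragments were left in 0 sham and 44 stroke astrocyte-like nuclei after thinning. In barcodes that were not called as nuclei Bcl3 was at 12.6 CPM in sham and 8.83 in stroke.

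Markers of other classes were also present in the glial classes. Their sums started from far higher sham levels than Bcl3, so their ratios cannot be set against the Bcl3 ratios. In astrocyte-like nuclei the 12 myeloid gate markers summed to 395 CPM in sham and 465 in stroke, with 7 of 12 higher in stroke. The VLMC or mural markers summed to 286 and 298 (8 of 12 higher) and the 10 endothelial markers to 228 and 282 (6 of 10 higher). The 10 oligodendrocyte markers summed to 288 and 339 (7 of 10 higher), and the astrocyte markers to 2024 and 1985 (6 of 10 higher). In oligodendrocyte-like nuclei, the myeloid markers went from 588 to 741 CPM (11 of 12 higher), the VLMC or mural markers from 125 to 279.7 (11 of 12 higher) and the astrocyte markers from 546 to 745 (8 of 10 higher). The class's own gate markers had 1520.4 and 1499.7 CPM (4 of 10 higher). Of the held-out lists in this class, oligodendrocyte markers went from 407 to 302 CPM (1 of 6 higher), microglia markers from 372 to 343 (3 of 6), macrophage markers from 22.8 to 32.1 (4 of 6), astrocyte markers from 159.9 to 174 (4 of 6) and VLMC or mural markers from 62.3 to 78.4 (2 of 6). In OPC-like nuclei the myeloid markers went from 489.8 to 575 CPM (8 of 12 higher) and the VLMC or mural markers from 174 to 217 (10 of 12 higher). Of the VLMC or mural markers, 2 were at 0 in sham oligodendrocyte-like nuclei and 1 in sham OPC-like nuclei. Of these marker lists, none had a gene at 0 in the astrocyte-like class of either library. The part of such nuclei or fragments in the Bcl3 values was not tested.

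The nearest genes gave another reading of the Bcl3 locus in astrocyte-like nuclei. Cblc, 11.7 kb away, had 9.67 CPM in sham and 14.4 in stroke, a ratio of 1.49 (0.961 to 2.36). Bcam at 37.4 kb and Nectin2 at 58.0 kb had ratios of 0.809 (0.503 to 1.31) and 0.956 (0.793 to 1.15). Gm19345 and Ceacam16 were near 2.18 CPM in sham and had ratios of 2.27 (0.943 to 6.26) and 2.07 (0.848 to 5.77). The intervals of these neighbours all lie below that of Bcl3. Because Bcl3 had been chosen for its ratio, most genes would lie below it, and this is a description only. The neighbours were taken by distance, after values had been seen. Of 6 neighbours, Ceacam19 at 53.0 kb had a ratio of 1.04 (0.435 to 2.58).

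The 5 subunit genes were open in both libraries and differed little. Nfkb1, which encodes the p105 precursor of p50, had 182 fragments in sham astrocyte-like nuclei (56.8 CPM) and 376 in stroke (81.0 CPM), a ratio of 1.43 (1.19 to 1.71). Rel, which encodes c-Rel, had 74 (23.1 CPM) and 169 (36.4 CPM), a ratio of 1.58 (1.19 to 2.1). Relb, the partner of p52 in the non-canonical pathway, had 126 (39.3 CPM) and 283 (60.9 CPM), a ratio of 1.55 (1.2 to 1.9). Over the whole counted windows, these 3 ratios were above 1 beyond counting error and below 2-fold. For Nfkb1 this was not seen at the gene start. Within 1 kb of its start the ratio was 1.06 (0.673 to 1.68). Its only accessible element, at +161, had an insertion ratio of 0.967 (0.525 to 1.81). The elements at the starts of Rel (+145) and Relb (-34) had insertion ratios of 2.70 and 1.62.

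The remaining 2 subunits had ratios below 1 in the astrocyte-like class, with intervals that include 1. Nfkb2, the gene of the p100 precursor of p52, had 171 fragments in sham (53.3 CPM) and 214 in stroke (46.1 CPM), a ratio of 0.864 (0.703 to 1.06). Rela, which encodes p65, the main activating subunit, had 91 (28.4 CPM) and 125 (26.9 CPM), a ratio of 0.949 (0.718 to 1.26). The direction of Rela depended on the setting. Its log2 ratio of -0.08 became 0.32 after thinning and 0.61 with a stricter gate, but -0.11 with a looser gate. In all kept nuclei the ratios were 1.21 for Nfkb1, 1.06 for Nfkb2, 1.11 for Rel, 0.902 for Rela and 1.04 for Relb.

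The inhibitors of the family also stayed within 2-fold in astrocyte-like nuclei. Nfkbia, the gene of IkBa, which retains NF-kB in the cytoplasm and is itself a target, had 119 fragments in sham (37.1 CPM) and 183 in stroke (39.4 CPM), a ratio of 1.06 (0.838 to 1.35). Nfkbiz, which encodes IkBz, an atypical nuclear IkB like Bcl3, had 119 (37.1 CPM) and 227 (48.9 CPM), a ratio of 1.32 (1.05 to 1.66). Tnfaip3, the gene of the ubiquitin-editing enzyme A20, had 76 (23.7 CPM) and 81 (17.4 CPM), a ratio of 0.736 (0.531 to 1.02). In all kept nuclei Nfkbia had 14.8 CPM in sham and 19.4 in stroke, a ratio of 1.3, which was 1.07 at the sham class mix.

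**Figure D3:**
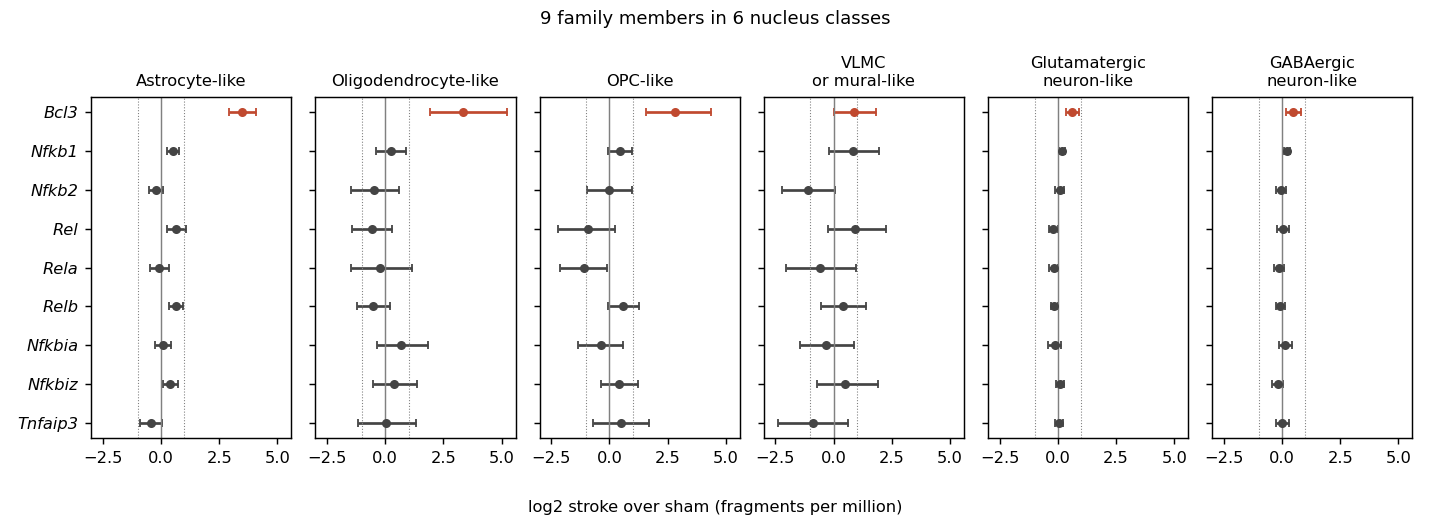
The log2 ratio of stroke over sham in CPM (x axis) for the 9 members (rows) in 6 classes (panels), with 95% counting intervals and dotted lines at 2-fold. Bcl3 (red) lies right of the 2-fold line in the 3 glial panels, while most other members (black) have intervals that reach 0.

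Across the 6 classes with a ratio, the members other than Bcl3 had median log2 ratios between -0.10 and 0.44. In astrocyte-like nuclei their median log2 ratio was 0.24, against -0.06 over all genes counted, with 1 of 9 members (Bcl3) at least 2-fold higher and 0 lower. In oligodendrocyte-like nuclei the median without Bcl3 was -0.10 against -0.12, and in OPC-like nuclei 0.21 against -0.10. Bcl3 was the 1 member at least 2-fold higher in each of these 2 classes. Rela was the 1 member at least 2-fold lower in OPC-like nuclei, with 31 fragments in sham (42.4 CPM) and 14 in stroke (20.1 CPM), a ratio of 0.474 (0.233 to 0.919). In that class 5.56% of all genes were as low, so 1 of 9 is near the background. In the neuronal classes 0 of 9 members passed 2-fold either way, with medians without Bcl3 of -0.04 and -0.01. Of 7 members with enough fragments in VLMC or mural-like nuclei, Nfkb2 was lower, with 16 fragments in sham (63.2 CPM) and 14 in stroke (29.8 CPM), a ratio of 0.472 whose interval (0.213 to 1.03) includes 1, and the median without Bcl3 was 0.44 against -0.01. There 5.75% of all genes were at least 2-fold lower.

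In stroke, Nfkb1, Nfkb2, Rela, Relb, Nfkbia, Nfkbiz and Tnfaip3 had their highest level of the 8 classes in endothelial-like nuclei. For Nfkb1 the OPC-like level was nearly the same (105 CPM, 82.2 to 132). Stroke endothelial-like nuclei had 105 CPM at Nfkb1 (71.0 to 150.3), 77.2 at Relb (48.4 to 117) and 73.7 at Nfkb2 (45.6 to 113). Both Nfkbia and Nfkbiz had 59.7 there (34.8 to 95.5), while Tnfaip3 had 49.1 (26.9 to 82.5) and Rela 28.1 (12.1 to 55.3), close to its 26.9 in astrocyte-like nuclei. Stroke myeloid-like nuclei had 93.9 CPM at Nfkb1, 56.0 at Relb, 44.2 at Nfkbiz and 34.6 at Tnfaip3 (28.6 to 41.5), against 17.4 at Tnfaip3 in stroke astrocyte-like nuclei. With 71 endothelial-like nuclei, most of these intervals overlap those of the astrocyte-like class.

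Between genes, levels were compared per kb of the counted window, in all kept nuclei. In sham the densest member was Nfkbia with 2.83 CPM per kb, followed by Nfkb2 with 2.66 and Rela with 1.98. Relb had 1.59, Tnfaip3 1.32 and Nfkbiz 0.911. Bcl3 with 0.651, Rel with 0.559 and Nfkb1 with 0.529 were the least dense. In stroke Bcl3 had 1.74 and Nfkbia 3.70 on the same scale. The intervals of Nfkbia and Nfkb2 overlapped in sham (2.67 to 3.01 and 2.55 to 2.78), and so did those of Rel and Nfkb1 (0.531 to 0.588 and 0.513 to 0.545). Nfkb1 spans 107 kb, much of it without accessible elements.

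Outside Bcl3, the accessible elements of the members lay mostly at gene starts and showed small ratios. Of 19 such elements, 10 held an annotated transcript start. In astrocyte-like nuclei 1 of the 19 was at least 2-fold higher in stroke and 1 at least 2-fold lower. Among 25435 elements found in the same way along all protein-coding genes, 5.61% were at least 2-fold higher and 6.24% at least 2-fold lower, with a median ratio of 0.867, so 1 of 19 in each direction is close to the usual share. The start region of Relb (-34) had a ratio of 1.62 and that of Nfkbia (+12) of 1.48, while those of Rela (-38) and Tnfaip3 (+227) had 1.14 and 1.26. The most open element of the family in sham astrocyte-like nuclei was the first exon region of Nfkb2 at +308 (39.0 insertion CPM), which stood at 35.3 in stroke. An internal start of Nfkbiz at +16706 had 54 insertions in sham (16.8 CPM) and 132 in stroke (28.4 CPM), a ratio of 1.69.

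Both exceptions, and the Nfkb2 start as the flat case, are printed because they set the range of the family's elements outside Bcl3. Rel +145 (chr11:23770675-23770974, minus strand) covers the start of Rel. Nfkb2 +4870 (chr19:46309040-46309339, plus strand) covers an exon of Nfkb2, and Nfkb2 +308 (chr19:46304478-46304777, plus strand) its start. Capitals mark matches as above.
Rel +145: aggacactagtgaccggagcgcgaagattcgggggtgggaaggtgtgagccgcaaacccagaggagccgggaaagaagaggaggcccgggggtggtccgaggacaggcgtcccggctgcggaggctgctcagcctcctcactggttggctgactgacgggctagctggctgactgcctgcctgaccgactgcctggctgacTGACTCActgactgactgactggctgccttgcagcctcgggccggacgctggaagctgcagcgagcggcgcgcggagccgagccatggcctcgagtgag
Nfkb2 +4870: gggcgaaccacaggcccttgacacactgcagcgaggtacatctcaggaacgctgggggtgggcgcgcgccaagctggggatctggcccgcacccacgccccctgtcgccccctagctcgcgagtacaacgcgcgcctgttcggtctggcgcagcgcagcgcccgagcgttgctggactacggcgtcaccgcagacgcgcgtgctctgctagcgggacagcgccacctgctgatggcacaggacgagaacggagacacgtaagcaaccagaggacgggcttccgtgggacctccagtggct
Nfkb2 +308: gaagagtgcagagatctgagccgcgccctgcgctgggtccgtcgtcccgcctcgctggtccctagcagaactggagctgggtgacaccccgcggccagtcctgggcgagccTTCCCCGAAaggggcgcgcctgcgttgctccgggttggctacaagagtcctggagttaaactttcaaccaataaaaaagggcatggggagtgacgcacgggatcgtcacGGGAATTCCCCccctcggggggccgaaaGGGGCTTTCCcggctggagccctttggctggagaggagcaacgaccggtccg

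Rel +145 had 32 insertions in 17 sham astrocyte-like nuclei (9.98 CPM) and 125 in 66 stroke nuclei (26.9 CPM), a ratio of 2.70. It held the AP-1 match TGACTCA at positions 202 to 208 and no kB match. Nfkb2 +4870 had 39 insertions in 19 sham nuclei (12.2 CPM) and 9 in 4 stroke nuclei (1.94 CPM), a ratio of 0.159. It held none of the 5 motifs. Nfkb2 +308 held 3 kB matches, GGGAATTCCC at 221 to 230, GGAATTCCCC one base further on and GGGGCTTTCC at 249 to 258, and 1 STAT match, and its ratio was 0.906. In oligodendrocyte-like nuclei Rel +145 stood at 22.8 CPM in sham and 17.0 in stroke, and Nfkb2 +4870 at 12.5 (6 insertions) and 1.89 (2 insertions). Other classes varied in direction at Nfkb2 +4870, which stood at 11.9 and 2.13 CPM in VLMC or mural-like nuclei (ratio 0.180, 0.00342 to 2.24), at 4.10 and 11.5 CPM in OPC-like nuclei (ratio 2.80, 0.672 to 16.4), at 7.14 and 9.54 in GABAergic neuron-like nuclei (ratio 1.34, 1.02 to 1.75) and at 8.38 and 7.11 in glutamatergic neuron-like nuclei (ratio 0.848, 0.674 to 1.06).

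**Figure D4:**
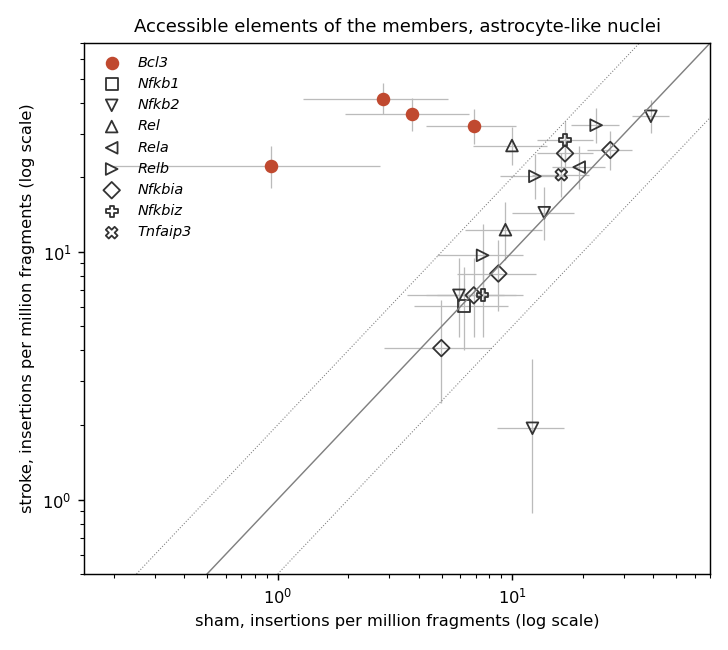
Tn5 insertion CPM in stroke (y axis, log scale) against sham (x axis, log scale) for the 23 accessible elements of the 9 members in astrocyte-like nuclei, with 95% Poisson intervals. The 4 Bcl3 elements (red) lie above the dotted 2-fold line, 1 Rel element lies just above it and 1 Nfkb2 element below the lower line.

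The counted windows of Bcl3, Nfkb1, Nfkb2 and Nfkbiz overlap other annotated genes, and fragments carry no strand, so the fragments of these genes cannot be assigned to 1 gene.

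A kB match was found in 11 of the 23 elements and an AP-1 match in 5. STAT matches were in 4 and C/EBP matches in 2. Of accessible windows of the same length, 4.10% held a kB, 10.9% an AP-1, 8.63% a STAT and 11.5% a C/EBP match. The shares over the elements of all genes were not computed, and no difference from them was tested. Of the 5 elements at least 2-fold higher in astrocyte-like nuclei, 4 were at Bcl3. Among the 5, 3 held an AP-1 match and 2 a kB match, too few to compare with these shares. RefSeq promoters were matched for 6 of the 9 members, and those of Bcl3, Rel, Nfkbia and Nfkb2 each held at least 1 kB match. The Rela promoter held no match to any of the motifs searched. For Tnfaip3 the promoter at chr10:19015361-19015660 held 2 kB matches and that at chr10:19011914-19012213 held 0.

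Insertions at motif matches over the whole genome are a readout that the choice of genes did not use. For each motif, the insertions within 50 bp of the match were divided by those at 400 to 500 bp from it, per base. At 216598 kB matches this centre-over-flank value was 1.06 in sham and 1.08 in stroke astrocyte-like nuclei, a stroke over sham ratio of 1.01 (1.0 to 1.02). At 840607 AP-1 matches it was 1.04 and 1.54, a ratio of 1.47 (1.46 to 1.48). CTCF matches, a site type bound in most cells, had 9.49 and 9.61, a ratio of 1.01 (0.988 to 1.04). In this class the kB and CTCF intervals overlapped, and the AP-1 ratio lay above both.

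In the other 5 classes the AP-1 ratio was also the highest of the 3 motifs. The kB ratio was 1.01 in oligodendrocyte-like, OPC-like and glutamatergic neuron-like nuclei, 0.993 in GABAergic neuron-like and 1.04 (1.0 to 1.07) in VLMC or mural-like nuclei. The CTCF ratio was 0.944 (0.934 to 0.954) in glutamatergic neuron-like nuclei, below the kB ratio there (1.01 to 1.02), and 0.945 (0.888 to 1.01) in oligodendrocyte-like nuclei. It was 0.997 in OPC-like, 0.996 in GABAergic neuron-like and 0.993 in VLMC or mural-like nuclei, with intervals that overlapped those of kB. The AP-1 ratio was 1.52 in VLMC or mural-like, 1.15 in oligodendrocyte-like and 1.10 in OPC-like nuclei and in both neuronal classes. The intervals of these ratios are normal ones on the log scale that treat insertions as independent, and they are too narrow. Most genomic matches lie in closed chromatin, so a change at a small share of kB sites would be hidden in the sum.

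**Figure D5:**
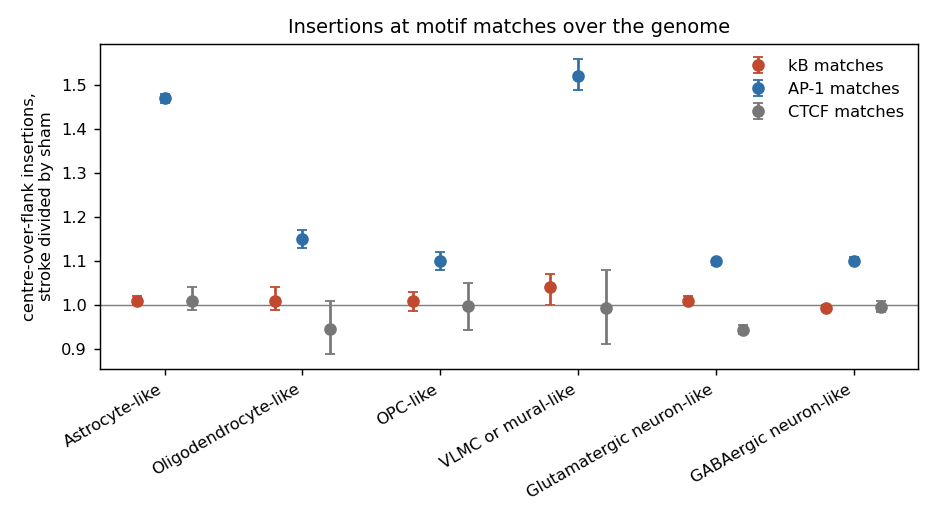
The centre-over-flank insertion value at motif matches over the genome in stroke divided by that in sham (y axis) for kB (red), AP-1 (blue) and CTCF (grey) matches in 6 classes, with 95% counting intervals. The AP-1 points lie above 1 in each class, at 1.47 in astrocyte-like nuclei, while the kB points lie between 0.993 and 1.04.

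Among 76 further genes on lists drawn up for the pathway, 67 had at least 20 fragments in astrocyte-like nuclei. Of these, 11 were at least 2-fold higher (16.4%), 2 at least 2-fold lower and 54 within 2-fold, with a median log2 ratio of 0.18. Over all 17012 genes counted in this class, 3.52% were at least 2-fold higher, 1.30% at least 2-fold lower and the median was -0.06. The lists were chosen with earlier results of these data known, so their shares are a description. Receptors had 3 of 12 higher and a median of 0.32. They were Tnfrsf1a, the main TNF receptor, with 25.6 CPM in sham and 54.9 in stroke, a ratio of 2.15 (1.67 to 2.79), Il1r1, the signalling IL-1 receptor (17.8 and 36.8, ratio 2.07, 1.53 to 2.85), and Osmr, the oncostatin M receptor (17.8 and 43.1, ratio 2.42, 1.80 to 3.31). Osmr was on the receptor list, although it is not a receptor of TNF, IL-1 or Toll-like ligands. Of 21 adaptors and kinases, 0 passed 2-fold in either direction, with a median of 0.02.

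Target genes had 8 of 22 counted higher, 0 lower and a median of 0.65. Vcam1, an adhesion molecule for leukocytes, had 17.5 CPM in sham and 37.0 in stroke, a ratio of 2.12 (1.56 to 2.92). The neutrophil chemokine gene Cxcl1 had 9 fragments in sham (2.81 CPM) and 43 in stroke (9.26 CPM), a ratio of 3.30 (1.59 to 7.70). The prostaglandin synthase gene Ptgs2 had 5 (1.56 CPM) and 26 (5.6 CPM), a ratio of 3.59 (1.36 to 12), and the early response gene Ier3 had 20 and 70, a ratio of 2.42 (1.45 to 4.2). Ratios were 2.21 (1.06 to 5.04) for the lipocalin gene Lcn2, 2.19 (1.49 to 3.30) for the death receptor gene Fas and 2.07 (0.848 to 5.77) for the acute phase gene Saa3, whose interval includes 1. The high count of targets was not seen in most other classes. At least 2-fold higher were 3 of 6 targets counted in oligodendrocyte-like nuclei, 0 of 12 in OPC-like (1 lower, median -0.11 against -0.10 over all genes), 0 of 7 in VLMC or mural-like (1 lower), 0 of 25 in glutamatergic neuron-like and 1 of 25 in GABAergic neuron-like nuclei (1 lower). The difference between classes was not tested.

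The lists of ligands and of other inhibitors each had 1 gene at least 2-fold lower and 0 higher. Of 3 ligands counted, the lymphotoxin gene Ltb had 17 fragments in sham (5.30 CPM) and 6 in stroke (1.29 CPM). Of 10 inhibitors, Nfkbid, which encodes another atypical IkB, had 31 (9.67 CPM) and 18 (3.88 CPM), a ratio of 0.401 (0.211 to 0.740). The medians were 0.40 and -0.06. In all kept nuclei 1 receptor (Osmr) of 12 and 2 targets of 26 were at least 2-fold higher, against 4.55% of all genes counted, and 0 of 8 ligands, 21 adaptors and kinases and 10 other inhibitors were.

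Over the 14 sums of class and library with at least 50 nuclei, the genes whose log2 levels followed Bcl3 most closely, of 18204 compared, were Ggta1 (Pearson r = 0.88), Cebpd (0.87), Sgms2 (0.87), Agmo (0.86) and Pros1 (0.86). The sums share libraries, depth and the share of fragments in peaks, so r is a description. Cebpd, a transcription factor gene of acute phase responses, had 26.2 CPM in sham and 56.4 in stroke astrocyte-like nuclei and 8.31 and 44.4 in oligodendrocyte-like nuclei. Of the other members, Nfkbiz had the highest r (0.74) and Rela the lowest (-0.16).

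Close to the threshold on the share of fragments in peaks, Bcl3 was not higher in stroke. In barcodes with 20% to 25% in peaks, just inside it, Bcl3 was at 20.2 CPM in sham (213 barcodes) and 19.8 in stroke (708). In those with 15% to 20%, just outside it, Bcl3 was at 33.5 CPM in sham (12 fragments from 49 barcodes) and 18.0 in stroke (482 barcodes). In all removed barcodes, at or under 20%, it was at 18.0 in sham (24 fragments) and 8.53 in stroke (302 fragments).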

How the data were processed

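Single-nucleus ATAC-seq libraries of 1 sham and 1 stroke pool were analysed. Per the labels and the study's methods, the authors processed reads with Cell Ranger ATAC 2.1.0 (Cell Ranger ARC is also listed) on mm10 and deposited fragments with read counts and a table of counts per barcode, both without normalization. Members and lists were chosen with earlier results of these data known.

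Fragments of kept barcodes (over 20% of fragments in peaks) overlapping a gene body of GENCODE M21 plus 2 kb upstream were counted and scaled to CPM. Nuclei were embedded by TF-IDF and SVD of 150000 bins of 500 bp (components 2 to 30), without the loci of members, pathway lists and markers. A class was given where the gate markers summed over the 20 nearest nuclei exceeded their base rate with a Poisson tail under 1e-05. Their ratio to the base rate also had to be at least 1.5 times that of the next class. This rule was chosen after the data had been seen, because gates on single nuclei had been impure, and was judged on markers held out of it. No doublets were removed.

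Ratios carry exact conditional binomial intervals and levels exact Poisson intervals. Centre-over-flank ratios carry normal intervals on the log scale. A gene needed 20 fragments over both libraries to be counted, and a count of 0 was set to 3 in counts of genes past 2-fold. Ratios were given for classes with at least 50 nuclei in each library. Genes named beside the members were, of the pathway lists, at most 12 past 2-fold in astrocyte-like nuclei, the largest first, and the 5 most like Bcl3 by r of log2(CPM + 1), among genes with at least 5 CPM in 1 sum. The neighbours of Bcl3 were chosen after values were seen. Counting was tested on simulated data. Python 3.11.15, numpy 2.4.6, scipy 1.17.1 and scikit-learn 1.9.0 were used. Alternatives were other windows, scalings, barcode filters, gates and fragment minimums.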

Additional observations from a re-analysis of the deposited data

Results flagged for a closer look

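Relb differed in direction between classes: its log2 ratio of stroke over sham was 0.63 in astrocyte-like nuclei (39.3 and 60.9 CPM) and -0.15 in glutamatergic neuron-like nuclei (37.7 and 34.0 CPM). The counting interval of the ratio was 1.2 to 1.9 in the first class and reached 0.999 in the second (0.812 to 0.999), so the neuronal direction is at the edge of counting error. The difference between the classes was not tested.

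Among the called barcodes that the filter on fragments in peaks removed, Tnfaip3 had a stroke over sham ratio of 2.78 (1.27 to 7.61). These were 162 sham and 3686 stroke barcodes, and no level or ratio of Tnfaip3 above used them. For Bcl3 the ratio in the same barcodes was 0.474 (0.313 to 0.752).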

How the results depend on the processing

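No paired analysis was possible because sham and stroke are each a single pooled library. The log2 ratio of Bcl3 in astrocyte-like nuclei stayed between 3.09 and 3.69 under all 12 alternatives run, and the kB ratio between 1.01 and 1.02 under 4. In all kept nuclei the Bcl3 log2 ratio of 1.42 became 2.21 with the promoter alone, 1.18 with the gene body alone, 1.55 per promoter fragment, 1.69 in barcodes with over 30% of fragments in peaks and 0.92 in all called barcodes, where 0 members remained at least 2-fold higher. With the gene body alone, 2 members (Bcl3 and Rel) were at least 2-fold higher in astrocyte-like nuclei. The Rela log2 ratio in that class turned from -0.08 to 0.61 with the stricter gate. The class with the highest stroke level of Bcl3 was VLMC or mural-like at 109 CPM, but OPC-like with the promoter alone (11.5), oligodendrocyte-like per promoter fragment (517) and with over 30% in peaks (107), and astrocyte-like in all called barcodes (90.8), after thinning (103) and with the check markers in the gate (90.9). The causes were not tested. With 1 library per condition, the intervals hold no variation between animals, and sham counts under 10 limit the oligodendrocyte-like and OPC-like ratios most.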
